A study of Mus musculus with 8 samples.

Results

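NMuMG cells kept in the vehicle DMSO were compared between 30 h and 6 h, to describe what these cells change with time in culture when no inhibitor is present. NMuMG is an established epithelial line from the normal mouse mammary gland, labelled wild type, and it was grown in medium with serum and insulin to just short of confluence. The comparison rests on 4 of the 8 RNA-seq libraries of the series, 2 of cells with DMSO for 6 h and 2 of cells with DMSO for 30 h. The other 4 libraries are of cells with BRM014, an inhibitor of the SWI/SNF ATPases SMARCA4 and SMARCA2, for 6 h or 30 h (2 each). They entered the fit to estimate the spread between replicates, and the change with time in them is compared last. Of the 21240 genes in the count table, 11835 had enough counts to be tested. The DMSO cells of both times had vehicle and no group was left untreated, so time in culture and time with DMSO cannot be told apart. The labels name biological replicates but do not tell whether each was a culture of its own. The p-values set a change against the spread between these libraries, which may not cover the spread between separate cultures. Whether the medium was renewed between 6 h and 30 h, and how dense the cells were at each time, is not given in the sources used here.

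As background, serum and insulin drive epithelial cells through the ERK, PI3K and YAP/TAZ pathways, which raise MYC, ribosome production and the genes of the cell cycle. As a culture fills its dish, contact between cells restrains YAP/TAZ, and growth factors, oxygen and nutrients in the medium are drawn down. Mammary epithelium also takes part in innate immunity: its cells can secrete complement components, acute phase proteins and chemokines, and they present peptides on MHC class I.

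The 4 DMSO libraries held 18065689 to 22797541 counts, with 13299 to 13743 genes detected and 4.43% to 5.18% of counts in the 10 highest genes. Log2 CPM (counts per 1000000 after TMM scaling) correlated with r = 0.992 between the 6 h replicates and r = 0.99 between the 30 h replicates. The biological coefficient of variation, estimated over all 8 libraries of the series, was 9.3%. The keratins and E-cadherin that mark simple epithelium were present. Krt8 was at 2104 and 2081 CPM at 6 h and 1756 and 1648 CPM at 30 h. Krt18 was at 3293 and 2845 CPM at 6 h and 2448 and 2292 CPM at 30 h. Krt19 was at 668 and 776 CPM at 6 h and 1202 and 1196 CPM at 30 h. Cdh1, E-cadherin, was at 250 and 260 CPM at 6 h and 309 and 416 CPM at 30 h. The epithelial markers Epcam, Cldn7, Cldn3 and Esrp1 are listed at 0 in the 4 DMSO libraries. How strand and annotation were set in the counting is not given. Whether these zeros mean absent transcripts was not tested. Over 7 fibroblast markers the summed level was 0.572 to 0.610 CPM at 6 h and 0.700 to 0.761 CPM at 30 h, and Thy1 and Lum were at 0. Over 8 leukocyte markers it was 7.32 to 8.32 CPM at 6 h and 3.89 to 6.30 CPM at 30 h, nearly all of it from the lysosomal gene Cd68, with Csf1r, Tyrobp and Adgre1 at 0. The 6 endothelial, 5 adipocyte and 5 muscle markers each summed to 0.312 CPM or less in each library. The 5 neural markers summed to 9.93 to 12.3 CPM at 6 h and 5.95 to 6.74 CPM at 30 h, nearly all of it from the stem cell factor Sox2. Sox2 fell from 11.2 and 8.63 CPM to 6.25 and 5.43 CPM (log2 fold change -0.77 ± 0.24, adjusted p = 0.0245), and the call of Sox2 ended without DMSO 6 h replicate 1 or DMSO 30 h replicate 2 and with ribosomal protein scaling (-0.69 to -0.54).

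Between 6 h and 30 h, 4167 genes changed in DMSO (35.2% of those tested), 2133 upward (18.0%) and 2034 downward (17.2%), at a Benjamini-Hochberg adjusted p below 0.05 in edgeR's quasi-likelihood test. The 2 groups of CPM values did not overlap in 8017 genes (67.7%). These include 2130 of the 2133 genes that rose and 2031 of the 2034 that fell. For a gene that was called, a lack of overlap therefore adds little to its call. The shares of 18.0% and 17.2% are the background for the counts of list members below. Most changes were small: the median log2 fold change was 0.66 among genes that rose and -0.50 among genes that fell, against 0.01 over all genes tested. Changes of at least 1 on the log2 scale were found in 596 genes that rose and 247 that fell, and changes of at least 2 in 183 and 42 genes. The split between directions depends on the scaling of the libraries. With TMM, 51.2% of the genes called were higher, but with library totals 65.9% and with scaling to ribosomal protein genes 66.7%. The number called also rests on 1 library: without DMSO 6 h replicate 1, 2331 genes were called, 1293 higher and 1038 lower. All values below compare 2 libraries with 2 and are log2 fold changes of 30 h over 6 h ± their standard error. In bulk RNA, fewer cells of a kind and less RNA per cell cannot be told apart.

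**Figure D1:**
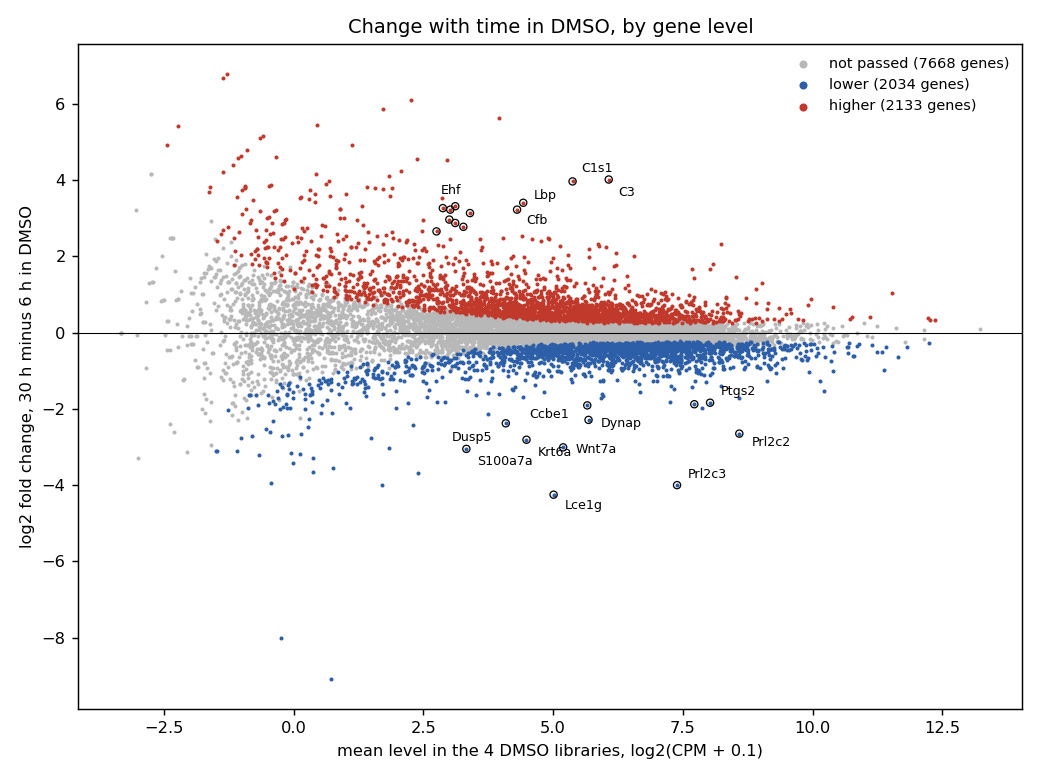
Each point is 1 of the 11835 tested genes, with its mean level in the 4 DMSO libraries as log2(CPM + 0.1) on the x axis and its log2 fold change from 6 h to 30 h on the y axis. Red points rose (2133 genes), blue points fell (2034) and grey points did not pass; rings mark 23 of the genes with the largest changes under the naming rule, such as C3 at 4.01 and Lce1g at -4.25, and the fitted values of genes without counts in a group are not bounds.

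Complement and acute phase genes had the highest median of the 34 gene lists described here. Of 20 listed genes 10 had enough counts to be tested, and 8 of these rose, with a median of 3.31. Members such as Saa3 reached the filter on low counts through the 30 h libraries alone, so the tested members are not a fair sample of the list. With no filter 9 of 18 members rose, with a median of 2.94. Complement is a cascade of serum proteins that tags microbes and damaged cells, and C3 is the component on which its activation routes converge. C3 (Entrez 12266) was at 6.25 and 9.46 CPM at 6 h and 116 and 137 CPM at 30 h, a log2 fold change of 4.01 ± 0.23 (adjusted p = 4.58e-07). Both 30 h libraries stood far above both 6 h libraries. C1s1, a protease of the classical route, was at 3.56 and 6.45 CPM at 6 h and 65.0 and 90.6 CPM at 30 h, a change of 3.96 ± 0.31 (adjusted p = 3.98e-06). C1rl, a relative of the C1r protease, was at 0.966 and 2.13 CPM at 6 h and 13.8 and 15.1 CPM at 30 h, and its change was 3.22 ± 0.29 (adjusted p = 1.40e-05). Cfb, the factor B of the alternative route, was at 3.35 and 4.26 CPM at 6 h and 30.1 and 41.0 CPM at 30 h and changed by 3.22 ± 0.21 (adjusted p = 2.22e-06). None of these groups overlapped, as the rule that named these 4 genes by size of change required. C1s1 has a near copy, C1s2, and Cfb lies beside the related gene C2, so the reads of each pair may be shared. Lbp, which binds bacterial lipopolysaccharide, was at 3.56 and 3.85 CPM at 6 h and 35.3 and 42.8 CPM at 30 h, a change of 3.40 ± 0.18 (adjusted p = 4.58e-07). Cp, the copper-binding ferroxidase ceruloplasmin, was at 96.1 and 105 CPM at 6 h and 459 and 553 CPM at 30 h, a change of 2.33 ± 0.16 (adjusted p = 2.33e-06). Its 30 h libraries were several times the 6 h ones, and the replicates of each time lay close together. The 8 that rose include 2 acute phase genes with few counts at 6 h, named here after their values were seen. Saa3, serum amyloid A, rose from 0.0508 and 0.208 CPM to 12.6 and 5.82 CPM (log2 fold change 6.09 ± 0.66, adjusted p = 5.69e-05). Hp, haptoglobin, which binds free haemoglobin, rose from 0 and 0.208 CPM to 6.03 and 6.61 CPM (log2 fold change 5.86 ± 0.58, adjusted p = 3.31e-05).

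Sequences before the start sites are shown for 6 genes whose lists moved together, so that the factor sites of the promoters can be seen beside the values. They come from the RefSeq annotation of GRCm38.p6, cover 250 bases before to 50 bases after the start, and run 5′ to 3′ on the strand of the gene. The counts themselves were made on mm9, so only the sequences and no positions are shared between them. Capitals mark letters that match a motif on either strand. A promoter of this length was found for 9420 of the tested genes (12028 windows, as some genes have several). For C3 (chr17:57228087-57228386, minus strand) the capitals mark TTNNGNAA, a loose form of the site of the C/EBP factors, which drive acute phase genes in liver and epithelia.
C3: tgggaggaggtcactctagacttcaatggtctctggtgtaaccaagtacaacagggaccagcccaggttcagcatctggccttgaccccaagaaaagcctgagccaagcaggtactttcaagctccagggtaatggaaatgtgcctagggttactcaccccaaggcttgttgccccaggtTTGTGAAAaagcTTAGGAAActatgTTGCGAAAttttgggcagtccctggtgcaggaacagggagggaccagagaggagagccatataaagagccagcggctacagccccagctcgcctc
The C3 promoter has 3 such matches between 70 and 45 bases before the start. TTNNGNAA was present in 77.8% of the 9 windows of the complement and acute phase list and in 30.7% of the windows of all tested genes. It was also in 47.8% of the windows of the cytokine list. For Ccl20 (chr1:83116516-83116815, plus strand), a chemokine gene described next, the capitals mark a kappaB site, the element bound by NF-kB.
Ccl20: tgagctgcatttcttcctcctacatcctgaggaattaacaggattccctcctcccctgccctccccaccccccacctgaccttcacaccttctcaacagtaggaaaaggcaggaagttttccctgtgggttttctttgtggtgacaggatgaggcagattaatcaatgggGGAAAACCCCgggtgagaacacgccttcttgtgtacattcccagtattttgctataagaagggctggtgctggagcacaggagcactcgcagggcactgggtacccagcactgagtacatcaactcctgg
The kappaB site occurs once, 80 bases before the start. A match was present in 47.8% of the 23 windows of the cytokine list and in 10.7% of the windows of all tested genes, the same share as TTNNGNAA in that list. Over all genes TTNNGNAA was in 34.0% of the windows of genes that rose and 26.6% of those that fell. The kappaB site was in 11.4% and 9.6% of them. The complement and cytokine lists were chosen by function, so their shares describe the lists and not their change with time. Both motifs were added after the values of these genes were known, and a match is a description of letters, not a bound site.

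Chemokines and feedback genes of NF-kB, the factor that switches on inflammatory transcription, mostly rose. Of 31 listed genes 23 were tested, 15 rose and 4 fell, with a median of 0.85. Ccl20, which attracts lymphocytes and dendritic cells that carry CCR6, was at 2.19 and 2.08 CPM at 6 h and 16.1 and 21.4 CPM at 30 h, a change of 3.13 ± 0.28 (adjusted p = 1.38e-05). Cxcl5, a neutrophil attractant, was already plain at 6 h, at 113 and 135 CPM at 6 h and 441 and 345 CPM at 30 h, and changed by 1.66 ± 0.12 (adjusted p = 3.11e-06). In both genes each 30 h library was above each 6 h library. Another neutrophil attractant, Cxcl1, rose from 93.3 and 67.2 CPM to 192 and 147 CPM (log2 fold change 1.08 ± 0.15, adjusted p = 1.96e-04). Ccl2, the monocyte attractant, rose from 278 and 308 CPM to 602 and 489 CPM (log2 fold change 0.90 ± 0.16, adjusted p = 8.92e-04). Nfkbie, an inhibitor that NF-kB induces against itself, rose from 10.2 and 8.47 CPM to 30.6 and 23.2 CPM (log2 fold change 1.53 ± 0.16, adjusted p = 3.72e-05). The 4 members that fell were the following. Csf2, the growth factor of granulocytes and macrophages, fell from 2.34 and 0.780 CPM to 0.109 and 0.219 CPM (log2 fold change -3.17 ± 0.68, adjusted p = 0.00329). Tnfaip3, an enzyme that ends NF-kB signalling, fell from 83.7 and 63.2 CPM to 43.7 and 50.9 CPM (log2 fold change -0.63 ± 0.13, adjusted p = 0.00261). Il1rn, the antagonist of interleukin 1, fell from 31.2 and 28.5 CPM to 20.3 and 14.8 CPM (log2 fold change -0.77 ± 0.23, adjusted p = 0.0205). The alarmin Il33 fell from 132 and 149 CPM to 117 and 79.6 CPM (log2 fold change -0.52 ± 0.16, adjusted p = 0.0226). These 4 are less secure: without DMSO 6 h replicate 1 no member was called lower, and without DMSO 30 h replicate 2 only 2 were. The call of Csf2 ended without DMSO 6 h replicate 1 (-2.15), that of Tnfaip3 ended without DMSO 6 h replicate 1 (-0.39), that of Il1rn ended without either DMSO 6 h replicate or DMSO 30 h replicate 2 and with ribosomal protein scaling (-0.84 to -0.53) and that of Il33 ended without either DMSO 6 h replicate or DMSO 30 h replicate 2 and with library totals or ribosomal protein scaling (-0.58 to -0.24).

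Genes of antigen presentation and the interferon response rose. Of 46 listed genes 33 were tested, 19 rose and 2 fell. The median was 0.87, or 0.76 with Isg15, which had no counts at 6 h and 4 counts at 30 h, set at the bound that 3 counts allow. MHC class I molecules show peptides from inside the cell to T cells, and tapasin (Tapbp) loads them. Tapbp was at 29.4 and 37.6 CPM at 6 h and 113 and 116 CPM at 30 h, a change of 1.77 ± 0.16 (adjusted p = 1.32e-05). The class I heavy chain H2-K1 was at 16.4 and 15.4 CPM at 6 h and 35.9 and 30.5 CPM at 30 h, a change of 1.06 ± 0.12 (adjusted p = 5.98e-05). The related heavy chain H2-D1 was at 29.7 and 31.4 CPM at 6 h and 58.2 and 55.2 CPM at 30 h, a change of 0.89 ± 0.10 (adjusted p = 6.31e-05). The 30 h libraries were higher in all 3 genes, and the heavy chains are alike enough that their short reads may be shared. Ifih1, a sensor of viral double-stranded RNA, was at 0.712 and 1.04 CPM at 6 h and 4.78 and 5.25 CPM at 30 h, a low level, and changed by 2.52 ± 0.30 (adjusted p = 8.29e-05). There were 2 members that fell. Dhx58, another RNA sensor, fell from 2.80 and 1.72 CPM to 0.707 and 0.613 CPM (log2 fold change -1.77 ± 0.40, adjusted p = 0.00422). The exonuclease Isg20 fell from 42.7 and 37.0 CPM to 34.2 and 28.6 CPM (log2 fold change -0.35 ± 0.12, adjusted p = 0.0375). The call of Dhx58 ended without DMSO 6 h replicate 1 (-1.36) and that of Isg20 ended without DMSO 6 h replicate 1, DMSO 30 h replicate 2 or either BRM014 6 h replicate and with library totals, ribosomal protein scaling, the stricter filter or only the DMSO libraries (-0.35 to -0.19). The interferon response element was present in 34.4% of the 32 promoter windows of the list and in 2.7% of those of all tested genes. The list was chosen as interferon genes, so this share describes the list and not its change with time. Over all genes the element was in 3.1% of the windows of genes that rose and 2.4% of those that fell.

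**Figure D2:**
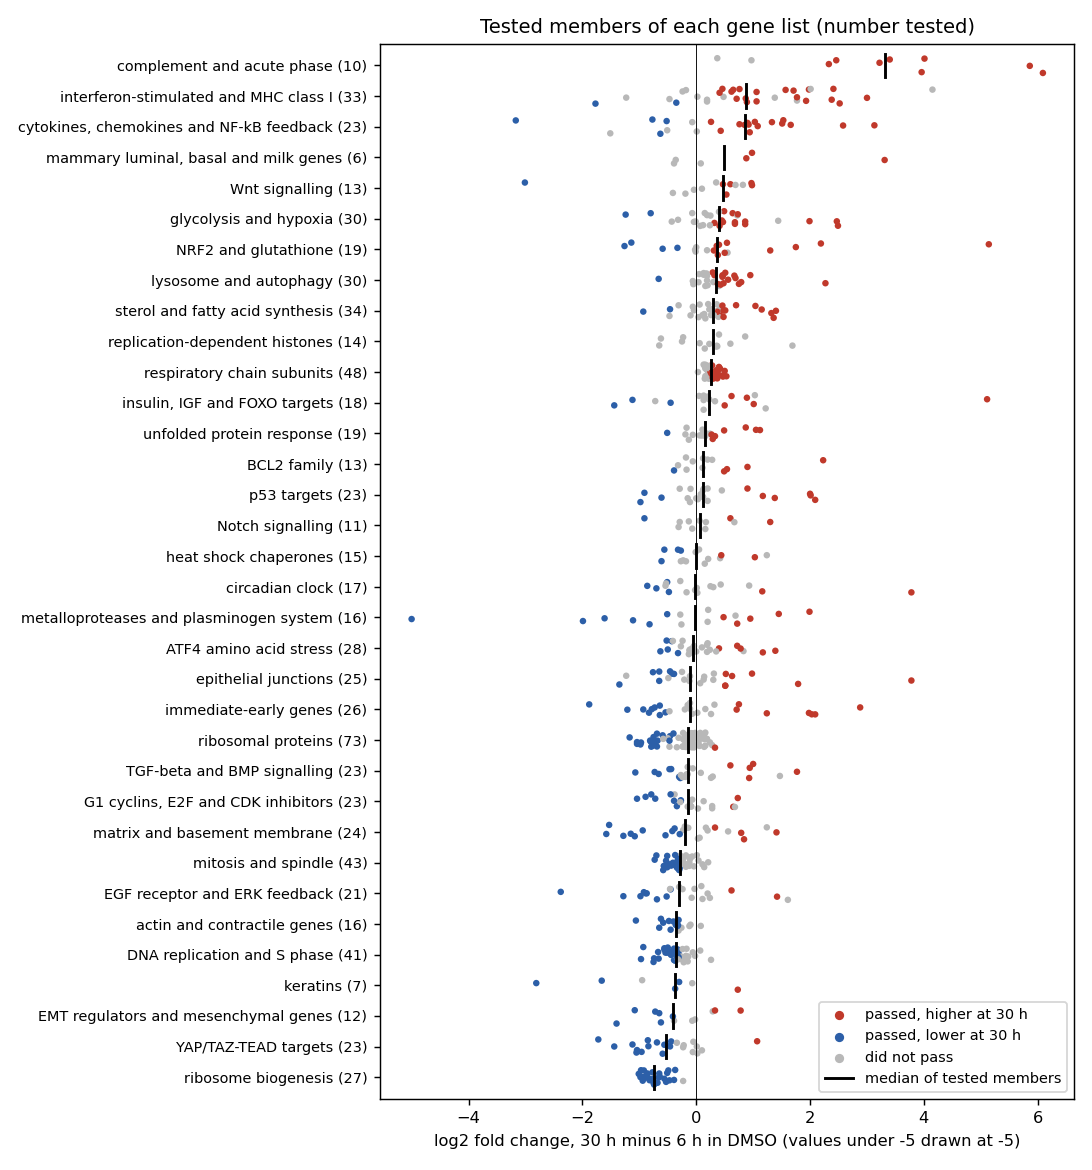
Each row is a gene list with the number of its tested members, and each point is a member placed by its log2 fold change from 6 h to 30 h in DMSO (x axis); red points rose, blue points fell, grey points did not pass and black bars are medians. The medians run from 3.31 for complement and acute phase genes to -0.75 for ribosome biogenesis, and 1 fitted value under -5 (Serpinb2, no counts at 30 h) is drawn at -5.

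Ribosome biogenesis fell almost throughout. Of its 27 tested genes 26 fell, and the list had a median of -0.75, with every member below 0 (the highest at -0.23). These genes make and process ribosomal RNA in the nucleolus and are classical targets of MYC. Ncl, the abundant nucleolar protein nucleolin, was at 3768 and 3344 CPM at 6 h and 1732 and 1864 CPM at 30 h, a change of -0.98 ± 0.11 (adjusted p = 4.03e-05). Both 30 h libraries were well below both 6 h libraries. The ribosomal RNA processing factor Wdr43 fell from 321 and 276 CPM to 153 and 144 CPM (log2 fold change -1.01 ± 0.11, adjusted p = 3.55e-05). The nucleolar GTPase Gnl3 fell from 306 and 279 CPM to 142 and 155 CPM (log2 fold change -0.97 ± 0.10, adjusted p = 2.38e-05). Nop56, a core protein of the methylation guide particles, fell from 469 and 416 CPM to 250 and 218 CPM (log2 fold change -0.92 ± 0.11, adjusted p = 5.98e-05). Myc itself was at 351 and 230 CPM at 6 h and 159 and 124 CPM at 30 h, a change of -1.04 ± 0.17 (adjusted p = 5.53e-04). Its 6 h replicates differed from each other by more than its 30 h replicates did, but the groups did not overlap. The summed level of the list fell from 11496 and 10339 CPM at 6 h to 6176 and 6178 CPM at 30 h. The ribosomal protein genes moved less: of 73 tested 18 fell and 1, Rps21, rose, with a median of -0.14. The log2 fold change of Rps21 was 0.33 ± 0.11 (adjusted p = 0.0295), and the call of Rps21 ended without DMSO 6 h replicate 1, DMSO 30 h replicate 1 or either BRM014 6 h replicate and with only the DMSO libraries (0.18 to 0.34). Rps12, of the small subunit, fell from 64.7 and 74.4 CPM to 37.0 and 30.9 CPM (log2 fold change -1.04 ± 0.12, adjusted p = 6.39e-05). Rpl10a, of the large subunit, fell from 96.6 and 89.4 CPM to 56.1 and 38.8 CPM (log2 fold change -0.97 ± 0.15, adjusted p = 4.44e-04). Genes of this family have many processed pseudogenes that can take their short reads, so their counts are uncertain. The E-box CACGTG, the site of MYC, was present in 13.8% of the 29 promoter windows of the ribosome biogenesis list and in 9.9% of those of all tested genes. Over all genes it was in 9.5% of the windows of genes that rose and 11.4% of those that fell.

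DNA replication genes fell as a list, with 26 of 41 lower and a median of -0.35. They license, unwind and copy DNA in S phase under the control of E2F factors. Orc1, a subunit of the origin recognition complex, was at 43.5 and 35.6 CPM at 6 h and 20.3 and 20.0 CPM at 30 h, a change of -0.97 ± 0.13 (adjusted p = 1.94e-04). Clspn, the replication checkpoint mediator claspin, was at 111 and 106 CPM at 6 h and 52.8 and 60.9 CPM at 30 h and changed by -0.93 ± 0.11 (adjusted p = 5.98e-05). In both genes the 30 h libraries were below the 6 h libraries and close to each other. The initiation factor Mcm10 fell from 128 and 127 CPM to 68.5 and 82.8 CPM (log2 fold change -0.75 ± 0.11, adjusted p = 2.46e-04). The licensing factor Cdc6 fell from 122 and 117 CPM to 71.7 and 77.8 CPM (log2 fold change -0.67 ± 0.10, adjusted p = 2.64e-04). The count is smaller under other settings, at 16 without DMSO 6 h replicate 1 and 13 with scaling to ribosomal protein genes.

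Mitosis and spindle genes showed a shallower decline, with 22 of 43 lower and a median of -0.29. Mki67, the proliferation marker Ki-67 (Entrez 17345), was at 813 and 875 CPM at 6 h and 473 and 567 CPM at 30 h, a change of -0.70 ± 0.10 (adjusted p = 3.07e-04). Foxm1, the factor that switches on the mitotic programme, was at 296 and 280 CPM at 6 h and 192 and 197 CPM at 30 h, a change of -0.57 ± 0.09 (adjusted p = 4.41e-04). The 30 h libraries were below the 6 h libraries in both. Kif23, a motor of the central spindle needed for cytokinesis, fell from 401 and 338 CPM to 227 and 217 CPM (log2 fold change -0.73 ± 0.10, adjusted p = 1.73e-04). Cenpf, a kinetochore protein (Entrez 108000), fell from 170 and 172 CPM to 120 and 121 CPM (log2 fold change -0.51 ± 0.09, adjusted p = 7.45e-04). With library totals 14 members were lower, and with scaling to ribosomal protein genes 11.

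Promoters of mitotic genes carry a CCAAT box, bound by NF-Y, and a cell cycle homology region (CHR, TTTGAA), bound by the DREAM complex, which represses these genes outside the dividing phases. Both motifs are in capitals, on either strand, in the promoters of Cenpf (chr1:189688037-189688336, minus strand) and Mki67 (chr7:135716330-135716629, minus strand).
Cenpf: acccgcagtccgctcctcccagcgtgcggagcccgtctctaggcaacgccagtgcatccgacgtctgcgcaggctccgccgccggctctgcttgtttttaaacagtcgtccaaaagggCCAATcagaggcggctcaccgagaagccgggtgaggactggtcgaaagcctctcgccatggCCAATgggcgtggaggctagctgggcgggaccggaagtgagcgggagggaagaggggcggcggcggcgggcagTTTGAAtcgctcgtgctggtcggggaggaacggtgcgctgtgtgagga
Mki67: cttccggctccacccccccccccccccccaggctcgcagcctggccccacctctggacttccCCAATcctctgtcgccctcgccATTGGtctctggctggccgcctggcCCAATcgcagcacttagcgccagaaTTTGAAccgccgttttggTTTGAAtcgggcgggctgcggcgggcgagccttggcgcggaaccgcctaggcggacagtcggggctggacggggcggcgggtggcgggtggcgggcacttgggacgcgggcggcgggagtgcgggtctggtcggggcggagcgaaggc
In Mki67 there are 3 CCAAT boxes, the nearest 141 bases before the start, followed by 2 CHR matches at 116 and 98 bases before it. In Cenpf there are 2 CCAAT boxes at 132 and 71 bases before the start, and its CHR lies just after the start. CCAAT was present in 75.0% of the 36 promoter windows of the mitosis list, 59.5% of the 42 windows of the DNA replication list and 38.1% of the windows of all tested genes. TTTGAA was present in 72.2%, 11.9% and 11.8% of them. The mitosis and DNA replication lists were chosen as cell cycle genes, so their shares describe the lists and not their change with time. Taken over all genes, CCAAT was not more frequent among genes that fell: it was in 39.6% of the windows of genes that rose and 35.8% of those that fell. TTTGAA was in 10.9% and 14.7% of them, so it was more frequent among genes that fell.

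Among the regulators of the G1 phase 9 of 23 fell and 2 rose, with a median of -0.15. The atypical repressor E2f8, itself an E2F target, fell from 175 and 157 CPM to 86.9 and 91.8 CPM (log2 fold change -0.89 ± 0.10, adjusted p = 5.47e-05). Its relative E2f7 fell from 67.2 and 61.8 CPM to 34.7 and 39.9 CPM (log2 fold change -0.79 ± 0.12, adjusted p = 4.94e-04). The 2 genes that rose are the neighbouring inhibitors of CDK4 and CDK6. Cdkn2b was at 36.9 and 29.2 CPM at 6 h and 60.6 and 49.1 CPM at 30 h, a change of 0.73 ± 0.13 (adjusted p = 0.00124). Cdkn2a was at 22.2 and 21.2 CPM at 6 h and 37.6 and 30.6 CPM at 30 h, a change of 0.65 ± 0.12 (adjusted p = 0.00161). In both the 30 h libraries were above the 6 h libraries by a modest step. Counts do not separate the 2 products of Cdkn2a. Without DMSO 6 h replicate 1, 5 members were lower, and 4 with scaling to ribosomal protein genes.

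Immediate-early genes, which growth factors switch on within minutes, split by member. Of 26 tested genes 7 rose and 9 fell, with a median of -0.11. Fos, the AP-1 subunit whose transcript is among the first to follow stimulation, was at 8.64 and 8.73 CPM at 6 h and 40.5 and 28.3 CPM at 30 h, a change of 1.98 ± 0.21 (adjusted p = 3.72e-05). Egr1, a zinc finger factor of the same early wave, was at 15.7 and 15.0 CPM at 6 h and 81.1 and 44.7 CPM at 30 h, a change of 2.03 ± 0.26 (adjusted p = 1.35e-04). Btg2, an antiproliferative early gene and p53 target, was at 32.6 and 23.8 CPM at 6 h and 126 and 114 CPM at 30 h, a change of 2.09 ± 0.15 (adjusted p = 2.85e-06). The 30 h libraries were higher in all 3, and the Egr1 replicates at 30 h stood apart from each other. The other AP-1 subunit Fosl1, which accumulates under lasting ERK activity, went the other way, at 418 and 245 CPM at 6 h and 113 and 68.0 CPM at 30 h, a change of -1.88 ± 0.23 (adjusted p = 1.10e-04). Its 6 h replicates differed widely, and the 30 h libraries were both below them, as the rule for the largest changes required. Ptgs2, the inducible prostaglandin synthase COX-2, fell from 491 and 323 CPM to 145 and 82.7 CPM (log2 fold change -1.84 ± 0.24, adjusted p = 1.45e-04).

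Ligands and feedback genes of the EGF receptor and ERK pathway fell more often than they rose, 9 against 2 of 21 tested, with a median of -0.30. Areg (amphiregulin), the ligand of mammary duct growth, was at 223 and 141 CPM at 6 h and 91.0 and 59.0 CPM at 30 h, a change of -1.28 ± 0.21 (adjusted p = 6.24e-04). Ereg (epiregulin) was at 118 and 95.4 CPM at 6 h and 63.4 and 45.3 CPM at 30 h, a change of -0.98 ± 0.16 (adjusted p = 5.56e-04). Hbegf was at 122 and 84.6 CPM at 6 h and 61.9 and 47.5 CPM at 30 h, a change of -0.92 ± 0.16 (adjusted p = 9.61e-04). In all 3 ligands the first 6 h replicate was the highest library and both 30 h libraries were lowest. The receptor gene Egfr, chosen after its values were seen, fell from 76.6 and 62.3 CPM to 41.2 and 44.6 CPM (log2 fold change -0.69 ± 0.13, adjusted p = 0.00118). Dusp5, a nuclear ERK phosphatase that ERK itself induces, was at 37.5 and 19.1 CPM at 6 h and 7.50 and 3.54 CPM at 30 h, a change of -2.38 ± 0.36 (adjusted p = 3.97e-04). The receptor Erbb3 rose from 3.0 and 1.77 CPM to 5.71 and 7.04 CPM (log2 fold change 1.42 ± 0.27, adjusted p = 0.00175). The inhibitor Spry1 rose from 21.2 and 15.5 CPM to 32.1 and 24.7 CPM (log2 fold change 0.62 ± 0.17, adjusted p = 0.0128). The summed level of the list was 1417 and 1120 CPM at 6 h and 1002 and 884 CPM at 30 h, so the 6 h replicates differed by more than the nearer pair of times. Without DMSO 6 h replicate 1, 5 members were lower, and the call of Spry1 ended without DMSO 6 h replicate 2 or DMSO 30 h replicate 1 (0.40 to 0.42).

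Targets of YAP and TAZ fell, 14 of 23 tested against 1 that rose, with a median of -0.53. YAP and TAZ are coactivators held out of the nucleus by the Hippo kinases when cells are crowded or rounded, and they act through TEAD factors. Ankrd1 (Entrez 107765), a sensitive target, was at 669 and 502 CPM at 6 h and 169 and 187 CPM at 30 h, a change of -1.72 ± 0.13 (adjusted p = 2.85e-06). Amotl2 (Entrez 56332), a target that feeds back to hold YAP at junctions, was at 307 and 293 CPM at 6 h and 135 and 154 CPM at 30 h, a change of -1.05 ± 0.12 (adjusted p = 6.31e-05). In both genes the 30 h libraries lay close together, well under the 6 h libraries. The insulin-like growth factor binding protein Igfbp3 fell from 309 and 285 CPM to 128 and 91.0 CPM (log2 fold change -1.44 ± 0.14, adjusted p = 2.46e-05). F3, the tissue factor that starts clotting, fell from 172 and 123 CPM to 74.2 and 61.5 CPM (log2 fold change -1.12 ± 0.14, adjusted p = 1.11e-04). The best known targets were chosen after their values were seen. Ctgf, a matricellular protein, fell from 277 and 186 CPM to 107 and 118 CPM (log2 fold change -1.04 ± 0.16, adjusted p = 3.89e-04). Its relative Cyr61 fell from 481 and 335 CPM to 216 and 204 CPM (log2 fold change -0.96 ± 0.15, adjusted p = 4.06e-04). The member that rose was Nt5e, the surface enzyme that makes adenosine, from 1.88 and 3.27 CPM to 5.65 and 5.21 CPM (log2 fold change 1.07 ± 0.25, adjusted p = 0.00575), and the call of Nt5e ended without DMSO 6 h replicate 1 (0.75).

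TEAD factors bind GGAATG, in capitals on either strand in the promoters of Ankrd1 (chr19:36119795-36120094, minus strand) and Amotl2 (chr9:102717554-102717853, plus strand), which are shown because these genes changed together.
Ankrd1: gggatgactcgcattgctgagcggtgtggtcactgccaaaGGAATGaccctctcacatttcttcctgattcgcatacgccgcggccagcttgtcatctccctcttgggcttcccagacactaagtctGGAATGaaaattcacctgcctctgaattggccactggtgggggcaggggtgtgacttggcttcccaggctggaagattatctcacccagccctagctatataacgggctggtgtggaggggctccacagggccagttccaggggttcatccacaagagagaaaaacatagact
Amotl2: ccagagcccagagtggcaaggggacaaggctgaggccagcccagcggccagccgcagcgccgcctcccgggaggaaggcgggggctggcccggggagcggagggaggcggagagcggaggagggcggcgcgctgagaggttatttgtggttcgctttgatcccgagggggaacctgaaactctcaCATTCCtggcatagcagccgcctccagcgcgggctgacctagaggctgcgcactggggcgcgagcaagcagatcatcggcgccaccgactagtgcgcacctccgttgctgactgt
Ankrd1 has 2 matches, 210 and 123 bases before the start, and Amotl2 has 1 on the other strand, 65 bases before it. GGAATG was present in 64.7% of the 17 promoter windows of the list and in 12.2% of the windows of all tested genes. The list was chosen as targets of YAP, TAZ and TEAD, so this share describes the list and not its change with time. Among lists with medians above 0 GGAATG was in 44.4% of the complement and acute phase windows and 26.1% of the cytokine windows. Over all genes it was in 12% of the windows of genes that fell and 14.1% of those that rose. Many TEAD sites lie in distant enhancers, which these windows do not cover.

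**Figure D3:**
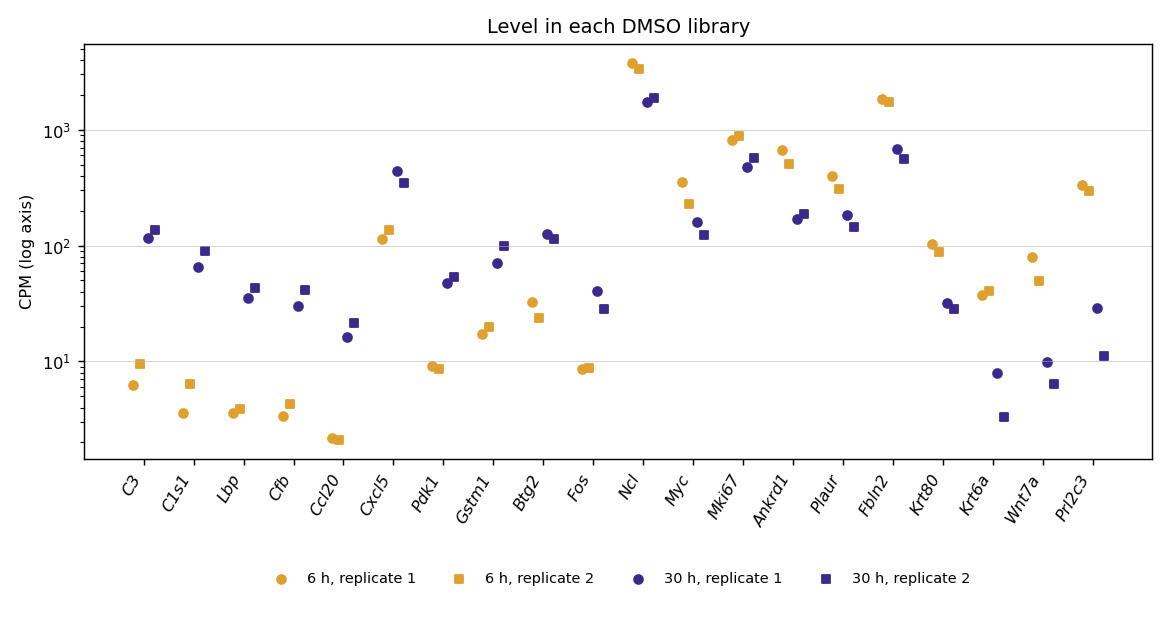
CPM (log axis) of 20 genes in each of the 4 DMSO libraries, with 6 h in orange and 30 h in blue, circles for replicate 1 and squares for replicate 2. For every gene drawn the 30 h points lie wholly above or wholly below the 6 h points, as for C3 (6.25 and 9.46 against 116 and 137 CPM) and Ankrd1 (669 and 502 against 169 and 187 CPM). The same holds for 2130 of the 2133 genes that rose and 2031 of the 2034 that fell.

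Actin and contractile genes, which build stress fibres and many of which respond to SRF and YAP, fell in 11 of 16 tested, with a median of -0.35. The alpha-actinin Actn1 fell from 710 and 601 CPM to 407 and 429 CPM (log2 fold change -0.65 ± 0.10, adjusted p = 4.07e-04). The filamin Flna fell from 2238 and 2043 CPM to 1327 and 1464 CPM (log2 fold change -0.62 ± 0.10, adjusted p = 6.90e-04). Both crosslinkers of stress fibres were lower in both 30 h libraries. The muscle filamin Flnc, which is not a member of this list, fell further, from 260 and 215 CPM to 73.9 and 61.6 CPM (log2 fold change -1.81 ± 0.17, adjusted p = 1.64e-05). The count was smaller under other settings: 3 members were lower without DMSO 6 h replicate 1, 6 without DMSO 30 h replicate 2 and 6 with scaling to ribosomal protein genes.

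Matrix genes fell more often than they rose, 10 against 4 of 24 tested (35 listed), with a median of -0.19. Fbln2, a glycoprotein of basement membranes and elastic fibres, was at 1820 and 1727 CPM at 6 h and 675 and 553 CPM at 30 h, a change of -1.53 ± 0.10 (adjusted p = 2.33e-06). Fn1, fibronectin, was at 334 and 288 CPM at 6 h and 138 and 157 CPM at 30 h, a change of -1.08 ± 0.10 (adjusted p = 1.78e-05). The laminin chain Lamb3, of the basement membrane, fell from 331 and 382 CPM to 186 and 186 CPM (log2 fold change -0.94 ± 0.09, adjusted p = 2.38e-05). The chain Lamb1 fell from 44.2 and 40.6 CPM to 20.7 and 17.8 CPM (log2 fold change -1.15 ± 0.13, adjusted p = 4.78e-05). In these 4 genes the replicates of a time were close and the times apart. Col7a1, the anchoring fibril collagen (chosen after its values were seen), fell from 23.8 and 16.3 CPM to 7.28 and 6.13 CPM (log2 fold change -1.58 ± 0.24, adjusted p = 3.61e-04). The members that rose were 3 collagens and 1 laminin chain. Col12a1 was at 10.3 and 11.6 CPM at 6 h and 26.7 and 31.8 CPM at 30 h, a change of 1.41 ± 0.17 (adjusted p = 9.03e-05). Col6a1, a chain of collagen VI, rose from 69.7 and 62.2 CPM to 132 and 104 CPM (log2 fold change 0.84 ± 0.16, adjusted p = 0.00157). Its partner chain Col6a2 rose from 19.3 and 14.5 CPM to 32.4 and 25.9 CPM (log2 fold change 0.79 ± 0.17, adjusted p = 0.00298). Lamb2 rose from 123 and 119 CPM to 153 and 149 CPM (log2 fold change 0.33 ± 0.12, adjusted p = 0.0490), and the call of Lamb2 ended without either DMSO 6 h replicate, either DMSO 30 h replicate or either BRM014 6 h replicate and with ribosomal protein scaling or limma-voom (0.29 to 0.40). Without DMSO 6 h replicate 1, and with scaling to ribosomal protein genes, 6 members were lower.

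Metalloproteases and the plasminogen system, through which cells dissolve matrix and clots, together held genes that fell and genes that rose. Plaur, the urokinase receptor, was at 397 and 310 CPM at 6 h and 182 and 145 CPM at 30 h, a change of -1.11 ± 0.15 (adjusted p = 1.71e-04). Both 30 h libraries were below both 6 h libraries. Serpinb2, an inhibitor of plasminogen activators, had 58 counts over the 6 h libraries and 0 over the 30 h libraries, at least 20.5-fold lower against a floor of 3 counts over the group. Timp3, an inhibitor of metalloproteases, fell from 4.73 and 4.94 CPM to 1.58 and 1.58 CPM (log2 fold change -1.61 ± 0.27, adjusted p = 6.68e-04). The membrane-bound metalloprotease Mmp15 rose from 2.19 and 2.34 CPM to 6.09 and 6.26 CPM (log2 fold change 1.45 ± 0.32, adjusted p = 0.00368). The secreted Mmp19 rose from 1.22 and 1.20 CPM to 6.14 and 3.54 CPM (log2 fold change 1.99 ± 0.39, adjusted p = 0.00196). Of 16 tested genes of metalloproteases and plasminogen 5 rose and 6 fell, with a median of -0.03 that does not keep its sign (0.06 with library totals and 0.05 with scaling to ribosomal protein genes). Without DMSO 6 h replicates 1 and 2, respectively, 2 and 3 members were higher.

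Of 7 tested keratins 4 fell and 1 rose, with a median of -0.37, and without DMSO 6 h replicate 1 or DMSO 30 h replicate 2 only 2 were lower. Krt6a, a keratin of wounded and stratified epithelium, was at 37.7 and 40.3 CPM at 6 h and 7.99 and 3.33 CPM at 30 h, a change of -2.81 ± 0.31 (adjusted p = 4.75e-05). Krt80, a keratin of junctions in many epithelia, was at 103 and 87.1 CPM at 6 h and 32.2 and 28.1 CPM at 30 h, a change of -1.66 ± 0.12 (adjusted p = 2.85e-06). Both were several times lower at 30 h, and Krt6a has near copies whose reads may be shared. Single genes outside the list, named by the size of their change or by their level, also fell. Lce1g, a late protein of the cornified envelope, was at 84.0 and 37.8 CPM at 6 h and 5.16 and 1.49 CPM at 30 h and had the lowest fold change under the naming rule, -4.25 ± 0.43 (adjusted p = 2.41e-05). Sprr1a, an envelope precursor, was at 1978 and 1617 CPM at 6 h and 1064 and 709 CPM at 30 h, a change of -1.02 ± 0.16 (adjusted p = 4.99e-04). S100a7a, the calcium-binding protein psoriasin, fell from 19.3 and 16.1 CPM to 3.15 and 1.23 CPM (log2 fold change -3.05 ± 0.32, adjusted p = 3.62e-05). In Lce1g the 6 h replicates differed widely from each other, and both were above the 30 h libraries, as the naming rule required. Of the keratins of simple epithelium, Krt18 changed by -0.37 ± 0.11 (adjusted p = 0.0155) and Krt8 by -0.30 ± 0.10 (adjusted p = 0.0336), downward, and Krt19 by 0.73 ± 0.14 (adjusted p = 0.00152), upward, from the levels given with the markers above. The call of Krt18 ended without DMSO 6 h replicate 1 or DMSO 30 h replicate 2 (-0.30 to -0.24) and that of Krt8 ended without either DMSO 6 h replicate, DMSO 30 h replicate 2 or either BRM014 6 h replicate and with library totals, ribosomal protein scaling or only the DMSO libraries (-0.32 to -0.21).

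Junction genes went both ways, 7 higher and 7 lower of 25 tested (35 listed, 8 of them listed at 0 in the DMSO libraries), with a median of -0.11. Jup, plakoglobin, which links cadherins to the cytoskeleton, was at 222 and 251 CPM at 6 h and 342 and 388 CPM at 30 h, a change of 0.63 ± 0.11 (adjusted p = 7.81e-04). Tjp1, the tight junction scaffold ZO-1, was at 483 and 526 CPM at 6 h and 251 and 344 CPM at 30 h, a change of -0.76 ± 0.12 (adjusted p = 6.08e-04). The desmosomal periplakin Ppl fell from 273 and 292 CPM to 169 and 192 CPM (log2 fold change -0.65 ± 0.10, adjusted p = 3.42e-04). Pard6b, of the apical polarity complex, fell from 32.4 and 34.6 CPM to 22.6 and 20.3 CPM (log2 fold change -0.65 ± 0.14, adjusted p = 0.00294). In each of these genes the groups did not overlap. Cdh1, E-cadherin, was at 250 and 260 CPM at 6 h and 309 and 416 CPM at 30 h, a change of 0.51 ± 0.13 (adjusted p = 0.00984), and the call of Cdh1 ended without DMSO 6 h replicate 1 or DMSO 30 h replicate 2 (0.30 to 0.50). Without DMSO 6 h replicate 1, 4 members were higher, without DMSO 30 h replicate 2, 4 were lower, and without DMSO 30 h replicate 1 the median was 0.12.

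Mesenchymal genes fell in 6 of 12 tested. NMuMG cells are a standard model of the epithelial to mesenchymal transition that TGF-beta sets off. Hmga2, a chromatin protein of that transition, was at 469 and 408 CPM at 6 h and 179 and 154 CPM at 30 h, a change of -1.40 ± 0.13 (adjusted p = 1.63e-05). Vim, vimentin, was at 4171 and 3681 CPM at 6 h and 2532 and 2474 CPM at 30 h, a change of -0.65 ± 0.09 (adjusted p = 1.89e-04). Cdh2, N-cadherin, was at 211 and 171 CPM at 6 h and 104 and 128 CPM at 30 h, a change of -0.72 ± 0.13 (adjusted p = 0.00103). In all 3 the 30 h libraries were the lower ones. The list had a median of -0.40 and 2 members that rose. S100a4, a calcium-binding protein of motile cells, rose from 775 and 815 CPM to 1029 and 969 CPM (log2 fold change 0.33 ± 0.10, adjusted p = 0.0244). The transcription factor Twist2 rose from 14.0 and 13.3 CPM to 26.5 and 20.4 CPM (log2 fold change 0.78 ± 0.18, adjusted p = 0.00546). The calls of both were weak: that of S100a4 ended without either DMSO 6 h replicate or DMSO 30 h replicate 1 (0.28 to 0.35) and that of Twist2 ended without DMSO 30 h replicate 1 (0.58).

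Genes of TGF-beta and BMP signalling split, and the 5 that rose are ligands. Tgfb1 was at 69.9 and 61.7 CPM at 6 h and 107 and 93.3 CPM at 30 h, a change of 0.60 ± 0.11 (adjusted p = 0.00112). Tgfb2 was at 9.10 and 11.7 CPM at 6 h and 20.5 and 21.1 CPM at 30 h, a change of 1.00 ± 0.16 (adjusted p = 4.99e-04). Bmp4 was at 17.5 and 18.0 CPM at 6 h and 35.3 and 32.9 CPM at 30 h, a change of 0.94 ± 0.13 (adjusted p = 1.96e-04). Their 30 h libraries were all above their 6 h libraries. Bmp2 rose from 1.22 and 1.51 CPM to 3.70 and 5.56 CPM (log2 fold change 1.77 ± 0.32, adjusted p = 0.00108). Tgfb3 rose from 3.05 and 2.24 CPM to 4.89 and 5.21 CPM (log2 fold change 0.93 ± 0.23, adjusted p = 0.00718). Inhba, the subunit of activin A, was the ligand that went the other way, from 35.3 and 25.6 CPM to 14.3 and 14.7 CPM (log2 fold change -1.07 ± 0.17, adjusted p = 5.01e-04). Pmepa1, a target that limits SMAD signalling, fell from 321 and 316 CPM to 202 and 183 CPM (log2 fold change -0.73 ± 0.10, adjusted p = 1.45e-04). Of 23 tested genes 5 rose and 7 fell, with a median of -0.15, and with scaling to ribosomal protein genes 4 were lower. The share that rose is near the 18.0% over all tested genes, of which 17.2% fell. The call of Tgfb3 ended without DMSO 6 h replicate 2 (0.72).

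Wnt and Notch genes were few. Wnt7a, a secreted ligand, was at 79.9 and 49.9 CPM at 6 h and 9.84 and 6.39 CPM at 30 h, a change of -3.01 ± 0.26 (adjusted p = 9.48e-06), one of the 12 lowest changes under the naming rule. Wnt4, the ligand of mammary side-branching, rose from 4.93 and 6.03 CPM to 9.19 and 12.3 CPM (log2 fold change 0.98 ± 0.22, adjusted p = 0.00392). Rnf43, a ligase that removes Frizzled receptors, rose from 12.3 and 13.9 CPM to 20.4 and 30.9 CPM (log2 fold change 0.97 ± 0.19, adjusted p = 0.00187). The other 3 that rose are Frizzled receptors, Fzd1 at 0.60 ± 0.15 (adjusted p = 0.00964), Fzd2 at 0.53 ± 0.15 (adjusted p = 0.0136) and Fzd7 at 0.47 ± 0.14 (adjusted p = 0.0165). The call of Fzd1 ended without DMSO 6 h replicate 1 or DMSO 30 h replicate 2 (0.46 to 0.59), that of Fzd2 ended without DMSO 6 h replicate 2 or DMSO 30 h replicate 1 (0.40) and that of Fzd7 ended without DMSO 6 h replicate 1 or DMSO 30 h replicate 2 (0.38 to 0.45). Of 13 tested Wnt genes 5 rose and 1 fell, with a median of 0.47. Without DMSO 6 h replicate 1, 3 were higher, as without DMSO 30 h replicate 2. Notch1, the receptor, was at 21.0 and 29.3 CPM at 6 h and 51.3 and 72.5 CPM at 30 h, a change of 1.30 ± 0.17 (adjusted p = 1.46e-04). Its ligand Jag1 was at 53.1 and 51.7 CPM at 6 h and 25.1 and 30.6 CPM at 30 h, a change of -0.91 ± 0.13 (adjusted p = 2.15e-04). Receptor and ligand thus changed in opposite directions, with no overlap in either. Of 11 tested Notch genes 2 rose, the other being the target Hes1, from 61.0 and 50.1 CPM to 93.2 and 74.9 CPM (log2 fold change 0.60 ± 0.15, adjusted p = 0.00968), and 1 fell, with a median of 0.06. The share that rose is close to the 18.0% over all tested genes, and the share that fell is below 17.2%. The call of Hes1 ended without DMSO 6 h replicate 2 or DMSO 30 h replicate 1 (0.42 to 0.45).

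In the insulin and IGF pathway the 2 receptor substrates went opposite ways. As in all tested genes, of which 18.0% rose and 17.2% fell, members of the list moved both ways. Irs1 was at 15.5 and 20.4 CPM at 6 h and 33.6 and 38.5 CPM at 30 h, a change of 1.01 ± 0.16 (adjusted p = 5.58e-04). Irs2 was at 63.5 and 53.5 CPM at 6 h and 24.6 and 29.1 CPM at 30 h, a change of -1.12 ± 0.16 (adjusted p = 2.03e-04). Both couple the insulin receptor to PI3K, and the 6 h and 30 h libraries did not overlap in either. Igfbp7 rose from 290 and 276 CPM to 404 and 398 CPM (log2 fold change 0.50 ± 0.09, adjusted p = 9.92e-04). The FOXO target Ccng2, an unconventional cyclin, rose from 31.0 and 32.9 CPM to 46.0 and 51.8 CPM (log2 fold change 0.62 ± 0.11, adjusted p = 0.00127). Igfbp5 had 1 count over the 6 h libraries and 46 over the 30 h libraries, a ratio of 43.4 per scaled library with an exact 95% interval, for counting error alone, from 7.41 to 1750. Of 18 tested genes 5 rose and 3 fell, with a median of 0.22, and 3 were higher without DMSO 6 h replicate 1. The call of Igfbp5 ended without DMSO 6 h replicate 1 (4.26).

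Genes of glycolysis and of the response to low oxygen rose in 14 of 30 tested and fell in 2, with a median of 0.40. Pdk1, the kinase that keeps pyruvate out of mitochondria and a target of HIF-1, was at 9.20 and 8.68 CPM at 6 h and 47.7 and 53 CPM at 30 h, a change of 2.49 ± 0.14 (adjusted p = 4.58e-07). Bnip3, a mitophagy receptor and HIF-1 target, was at 4.93 and 5.04 CPM at 6 h and 32.8 and 22.8 CPM at 30 h, a change of 2.47 ± 0.19 (adjusted p = 4.06e-06). The replicates of Pdk1 lay close together at both times, and the times were several fold apart. Aldoc, an aldolase, rose from a low level, from 1.52 and 1.87 CPM to 6.41 and 7.04 CPM (log2 fold change 1.99 ± 0.25, adjusted p = 1.15e-04). The 2 members that fell control the flow into glycolysis. Hk2, the inducible hexokinase, was at 115 and 95.2 CPM at 6 h and 43.0 and 46.1 CPM at 30 h, a change of -1.24 ± 0.14 (adjusted p = 5.07e-05). Pfkfb3, which makes the activator of phosphofructokinase, fell from 27.2 and 25.6 CPM to 13.9 and 16.3 CPM (log2 fold change -0.80 ± 0.13, adjusted p = 6.75e-04). The core of the hypoxia response element, ACGTG, was in 52.4% of the 42 promoter windows of the list and in 25.5% of the windows of all tested genes. The list was chosen as glycolysis and hypoxia genes, so its share describes the list and not its change with time. Over all genes ACGTG was in 23.6% of the windows of genes that rose and 28.5% of those that fell.

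Subunits of the respiratory chain moved by little but in 1 direction. All 48 tested genes had a log2 fold change above 0, from 0.03 to 0.53, and 26 passed the test, with a median of 0.26 against 0.01 over all genes. Ndufa6, of complex I, was at 71.0 and 68.9 CPM at 6 h and 104 and 98.6 CPM at 30 h, a change of 0.53 ± 0.10 (adjusted p = 0.00111). Sdhc, of complex II, was at 125 and 139 CPM at 6 h and 183 and 182 CPM at 30 h, a change of 0.47 ± 0.09 (adjusted p = 0.00217). Cox6c, of complex IV, rose from 163 and 161 CPM to 218 and 202 CPM (log2 fold change 0.37 ± 0.09, adjusted p = 0.00604). In these the 30 h libraries were above the 6 h libraries by a small step. With changes this small the count is not stable: it was 41 with library totals, 15 with only the DMSO libraries, 12 and 7 without DMSO 6 h replicates 1 and 2, 6 without DMSO 30 h replicate 1, and 16 when either BRM014 6 h library was left out.

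Genes of sterol and fatty acid synthesis rose in 13 of 34 tested and fell in 2, with a median of 0.30. SREBP factors control most of them. Scd2, a desaturase that makes monounsaturated fatty acids, was at 1983 and 1875 CPM at 6 h and 3185 and 4764 CPM at 30 h, a change of 1.04 ± 0.15 (adjusted p = 3.28e-04). Its sister Scd1 was at 76.1 and 70.6 CPM at 6 h and 132 and 193 CPM at 30 h, a change of 1.15 ± 0.15 (adjusted p = 1.47e-04). In both, replicate 2 was the highest library at 30 h. Tm7sf2, a sterol reductase, rose from 9.10 and 9.46 CPM to 24.7 and 22.8 CPM (log2 fold change 1.36 ± 0.15, adjusted p = 4.78e-05). Acss2, which makes acetyl-CoA from acetate, rose from 3.81 and 4.21 CPM to 9.67 and 11.5 CPM (log2 fold change 1.40 ± 0.20, adjusted p = 2.25e-04). The first steps of fatty acid synthesis went the other way: Fasn, the synthase, was at 694 and 638 CPM at 6 h and 298 and 399 CPM at 30 h, a change of -0.93 ± 0.22 (adjusted p = 0.00520). Acaca, which makes malonyl-CoA, fell from 57.9 and 55.6 CPM to 38.9 and 43.5 CPM (log2 fold change -0.46 ± 0.15, adjusted p = 0.0285). The call of Acaca ended without either DMSO 6 h replicate or DMSO 30 h replicate 1 and with library totals or ribosomal protein scaling (-0.50 to -0.37). The summed level was 6671 and 6531 CPM at 6 h and 7463 and 10676 CPM at 30 h, so the 30 h replicates differed from each other more than replicate 1 did from the 6 h libraries. The count varied: 22 members were higher without DMSO 30 h replicate 1 and 8 without DMSO 6 h replicate 2, and 20 with no filter on low counts.

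NRF2 is the factor that answers oxidants and electrophiles. Of 19 tested genes of its response and of glutathione use 10 rose and 4 fell, with a median of 0.36. Glutathione transferases were among those that rose. Gstm1 was at 17.3 and 19.8 CPM at 6 h and 70.2 and 99.2 CPM at 30 h, a change of 2.19 ± 0.16 (adjusted p = 2.76e-06). Mgst1, of membranes, was at 32.3 and 33.8 CPM at 6 h and 106 and 117 CPM at 30 h, a change of 1.75 ± 0.12 (adjusted p = 2.33e-06). Gsta4, which clears lipid peroxides, was at 308 and 292 CPM at 6 h and 668 and 811 CPM at 30 h, a change of 1.30 ± 0.11 (adjusted p = 7.21e-06). All 3 were higher in both 30 h libraries, but short reads may be shared within the Gstm family. Hmox1, which breaks down haem, was at 300 and 304 CPM at 6 h and 124 and 129 CPM at 30 h, a change of -1.26 ± 0.16 (adjusted p = 1.15e-04). Osgin1 fell from 203 and 151 CPM to 95.6 and 66.2 CPM (log2 fold change -1.14 ± 0.16, adjusted p = 2.42e-04). Txnrd1, the thioredoxin reductase, fell from 604 and 586 CPM to 390 and 401 CPM (log2 fold change -0.59 ± 0.11, adjusted p = 0.00115). Gsr, the glutathione reductase, fell from 447 and 476 CPM to 364 and 370 CPM (log2 fold change -0.33 ± 0.09, adjusted p = 0.0114). The call of Gsr ended without DMSO 6 h replicate 2 and with ribosomal protein scaling (-0.30 to -0.26).

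Lysosomal and autophagy genes rose in 16 of 30 tested and fell in 1, with a median of 0.35. Ctsh, an aminopeptidase of the lysosome, was at 16.2 and 24.5 CPM at 6 h and 72.5 and 124 CPM at 30 h, a change of 2.27 ± 0.22 (adjusted p = 2.38e-05). The carboxypeptidase Ctsa rose from 179 and 166 CPM to 248 and 301 CPM (log2 fold change 0.67 ± 0.11, adjusted p = 8.10e-04). Atp6v0d1, of the proton pump that acidifies lysosomes, rose from 78.4 and 82.3 CPM to 119 and 141 CPM (log2 fold change 0.69 ± 0.11, adjusted p = 6.55e-04). In these 3 genes the second 30 h replicate was the highest library. The member that fell was Ctsl, a cathepsin, from 1259 and 1101 CPM to 824 and 669 CPM (log2 fold change -0.66 ± 0.11, adjusted p = 6.45e-04). The count was 10 without DMSO 6 h replicate 1 and 10 without DMSO 30 h replicate 2.

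Stress programmes of the endoplasmic reticulum and of amino acid supply were described by 2 lists. Of 19 tested genes of the unfolded protein response 7 rose and 1 fell, with a median of 0.16. Herpud1, of the pathway that degrades misfolded proteins, was at 75.2 and 77.0 CPM at 6 h and 140 and 138 CPM at 30 h, a change of 0.87 ± 0.10 (adjusted p = 5.00e-05). Sdf2l1, a chaperone partner, rose from 21.2 and 21.9 CPM to 55.0 and 38.8 CPM (log2 fold change 1.12 ± 0.15, adjusted p = 1.96e-04). Xbp1, the factor itself, rose from 43.8 and 43.5 CPM to 110 and 70.6 CPM (log2 fold change 1.05 ± 0.19, adjusted p = 0.00136). In the latter 2 the first 30 h replicate was highest. The member that fell was Ern1, the sensor that activates Xbp1, from 39.2 and 37.1 CPM to 24.8 and 28.8 CPM (log2 fold change -0.51 ± 0.12, adjusted p = 0.00486), and the call of Ern1 ended with ribosomal protein scaling (-0.42). With either DMSO 6 h replicate left out, 4 members were higher. Of 28 tested genes of the ATF4 response 5 rose and 5 fell, with a median of -0.05 that changes sign with library totals (0.04) and with scaling to ribosomal protein genes (0.03). These shares are close to those over all tested genes (18.0% higher and 17.2% lower). Nupr1, a stress-induced chromatin protein, was at 20.2 and 17.5 CPM at 6 h and 51.5 and 47.2 CPM at 30 h, a change of 1.39 ± 0.15 (adjusted p = 3.62e-05). Slc7a5, the transporter of large neutral amino acids, was at 304 and 284 CPM at 6 h and 184 and 196 CPM at 30 h, a change of -0.63 ± 0.10 (adjusted p = 4.36e-04). Gdf15, a stress cytokine that p53 also induces, rose from 6.76 and 6.29 CPM to 14.6 and 14.8 CPM (log2 fold change 1.17 ± 0.20, adjusted p = 9.17e-04). Fewer members were lower under other settings, 2 without DMSO 6 h replicate 1, 3 without DMSO 30 h replicate 2 and 3 with scaling to ribosomal protein genes.

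Targets of p53 and the BCL2 family showed single large changes rather than a shift. Of 23 tested p53 targets 6 rose and 3 fell, with a median of 0.12. Over all tested genes 18.0% rose and 17.2% fell. Ddit4, which restrains mTORC1 and also answers low oxygen and glucocorticoids, was at 40.9 and 34.4 CPM at 6 h and 154 and 147 CPM at 30 h, a change of 2.0 ± 0.11 (adjusted p = 4.58e-07). Trp53inp1, which promotes autophagy, rose from 36.7 and 44.0 CPM to 95.3 and 114 CPM (log2 fold change 1.38 ± 0.17, adjusted p = 8.64e-05). Fas, the death receptor (chosen after its values were seen), rose from 8.13 and 6.55 CPM to 35.2 and 24.3 CPM (log2 fold change 2.01 ± 0.27, adjusted p = 1.64e-04). The replicates of each time were near each other in Ddit4 and the times several fold apart. Plk2, a kinase of the stress response, fell from 287 and 216 CPM to 132 and 122 CPM (log2 fold change -0.98 ± 0.13, adjusted p = 1.64e-04). Mdm2, which degrades p53, fell from 561 and 369 CPM to 257 and 236 CPM (log2 fold change -0.91 ± 0.23, adjusted p = 0.00825). The nuclease Aen fell from 227 and 192 CPM to 141 and 133 CPM (log2 fold change -0.61 ± 0.10, adjusted p = 7.57e-04). The call of Mdm2 ended without DMSO 6 h replicate 1 and with DESeq2 (-0.91 to -0.56). Of 13 tested BCL2 family genes 4 rose, and these were all BH3-only genes, whose products promote apoptosis. Bmf, released when cells lose attachment, was at 20.4 and 24.8 CPM at 6 h and 98.4 and 114 CPM at 30 h, a change of 2.23 ± 0.16 (adjusted p = 2.85e-06). Bbc3 rose from 12 and 7.33 CPM to 20.5 and 15.9 CPM (log2 fold change 0.90 ± 0.19, adjusted p = 0.00336). Bad rose from 52.7 and 49.1 CPM to 81.4 and 66.4 CPM (log2 fold change 0.54 ± 0.12, adjusted p = 0.00528). Bid rose from 86.0 and 92.2 CPM to 110 and 140 CPM (log2 fold change 0.49 ± 0.12, adjusted p = 0.00598). The BH3-only gene Bcl2l11 fell from 20.8 and 18.9 CPM to 15.7 and 14.6 CPM (log2 fold change -0.39 ± 0.14, adjusted p = 0.0424), but the call of Bcl2l11 ended without either DMSO 6 h replicate, either DMSO 30 h replicate or either BRM014 6 h replicate and with library totals, ribosomal protein scaling, no low-count filter, the stricter filter, DESeq2 or only the DMSO libraries (-0.47 to -0.30). The family's median was 0.12.

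Markers of mammary luminal and basal cells and milk genes mostly had few or no counts: of 19 listed genes 6 were tested and 9 are listed at 0 in the DMSO libraries. The median was 0.48, with 4 members above 0 and 2 below it (the lowest at -0.39). In edgeR's test 1 member was lower at an unadjusted p below 0.05. The 3 that rose are luminal factors, and the other 3 did not pass. Ehf, an ETS factor of glandular epithelia, was at 0.966 and 2.18 CPM at 6 h and 11 and 20.1 CPM at 30 h, a change of 3.31 ± 0.38 (adjusted p = 6.27e-05). Elf3, its relative, was at 21.9 and 23.4 CPM at 6 h and 36.0 and 53.2 CPM at 30 h, a change of 0.98 ± 0.21 (adjusted p = 0.00289). Stat5a, which carries the prolactin signal, was at 8.79 and 9.25 CPM at 6 h and 14.0 and 19.2 CPM at 30 h, a change of 0.88 ± 0.18 (adjusted p = 0.00286). In each the second 30 h replicate was highest and both 6 h libraries lowest. Of the 64 listed replication-dependent histone genes 14 were tested. Of these 0 passed edgeR's test, DESeq2 or limma-voom, with 1 higher and 0 lower at an unadjusted p below 0.05, but 2 were higher with no filter on low counts, 2 with the replicate block and 3 without DMSO 30 h replicate 2. The best covered, the linker histone Hist1h1c, was at 70.7 and 64.8 CPM at 6 h and 107 and 68.0 CPM at 30 h, a value of 0.37 ± 0.17 (adjusted p = 0.110), with groups that overlapped. By edgeR it was called higher without DMSO 30 h replicate 2 (0.69, adjusted p = 0.00223), with no filter (0.38, adjusted p = 0.00579) and with the replicate block (0.34, adjusted p = 0.0272).

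The circadian clock and heat shock lists showed no common direction. Over all tested genes 18.0% rose and 17.2% fell, so the counts of neither list stand far from the background. Of 17 tested clock genes 2 rose and 4 fell, with a median of -0.02 that was 0.07 with library totals and 0.05 with scaling to ribosomal protein genes. Bhlhe41, a repressor of the clock, fell from 22.9 and 19.1 CPM to 10.1 and 12.9 CPM (log2 fold change -0.86 ± 0.18, adjusted p = 0.00274). Its call held when any single library was left out. Of 15 tested chaperone genes 2 rose and 4 fell, with a median of -0.01 that was 0.08 with library totals and 0.06 with scaling to ribosomal protein genes. Hspd1, the mitochondrial chaperonin, fell from 1362 and 1230 CPM to 855 and 842 CPM (log2 fold change -0.61 ± 0.09, adjusted p = 2.54e-04). Hsp90aa1, the inducible HSP90, fell from 664 and 616 CPM to 450 and 417 CPM (log2 fold change -0.56 ± 0.09, adjusted p = 6.57e-04). Hspa1b, an inducible HSP70 with a near-identical copy that may share its reads, rose from 9.91 and 15.3 CPM to 27.0 and 24.3 CPM (log2 fold change 1.03 ± 0.22, adjusted p = 0.00326).

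Other genes with large changes belong to none of these lists. The proliferins are prolactin-related hormones that growing fibroblasts secrete. Prl2c3 was at 333 and 297 CPM at 6 h and 28.8 and 11.2 CPM at 30 h, a change of -4.0 ± 0.34 (adjusted p = 9.48e-06). Prl2c2 was at 689 and 639 CPM at 6 h and 151 and 60.7 CPM at 30 h, a change of -2.65 ± 0.28 (adjusted p = 3.86e-05). The pair is nearly identical in sequence, so the reads of the 2 genes may be shared, but both were several fold lower at 30 h. Ccbe1, a secreted protein of lymphatic growth, was at 82.4 and 76.9 CPM at 6 h and 21.5 and 20.9 CPM at 30 h, a change of -1.91 ± 0.11 (adjusted p = 4.58e-07). Dynap, a transmembrane protein that binds dynactin, fell from 98.6 and 71.6 CPM to 18.9 and 16 CPM (log2 fold change -2.29 ± 0.17, adjusted p = 3.41e-06). Among abundant genes Emp1, a membrane protein of epithelia, fell from 1664 and 1547 CPM to 694 and 631 CPM (log2 fold change -1.28 ± 0.13, adjusted p = 2.38e-05). Ahnak, a giant scaffold protein, fell from 1214 and 1426 CPM to 573 and 708 CPM (log2 fold change -1.04 ± 0.13, adjusted p = 1.10e-04). The genes that rose are mostly of low level at 6 h. Ypel2 rose from 1.78 and 2.34 CPM to 11.5 and 18.6 CPM (log2 fold change 2.87 ± 0.25, adjusted p = 1.22e-05). Cideb, a lipid droplet protein of liver, rose from 1.37 and 2.24 CPM to 14.2 and 13.8 CPM (log2 fold change 2.96 ± 0.25, adjusted p = 9.60e-06). Zcchc24, a zinc finger gene, rose from 0.712 and 2.03 CPM to 11.3 and 14.9 CPM (log2 fold change 3.26 ± 0.39, adjusted p = 8.46e-05). Aspa, the enzyme that splits N-acetylaspartate, rose from 1.78 and 3.12 CPM to 14.6 and 18.7 CPM (log2 fold change 2.77 ± 0.25, adjusted p = 1.40e-05). Ckmt1, the mitochondrial creatine kinase, rose from 1.32 and 2.34 CPM to 8.91 and 14.0 CPM (log2 fold change 2.65 ± 0.33, adjusted p = 1.10e-04).

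To see which changes with time were shared with the inhibitor-treated cells, the change from 6 h to 30 h was set beside that in BRM014, a comparison with no library in common. With BRM014, 4317 genes changed (36.5%), 2318 higher (19.6%) and 1999 lower (16.9%). Of the genes that rose with time in DMSO, 1182 (55.4%) also rose in BRM014 and 52 (2.44%) fell there, and the shared genes are 51.0% of those that rose in BRM014. Of the genes that fell in DMSO, 1119 (55.0%) also fell in BRM014 and 95 (4.67%) rose there, and the shared genes are 56.0% of those that fell in BRM014. The difference between the 2 changes with time, tested as an interaction in the same fit, passed in 766 genes (6.47%). That test and the one of time in DMSO share the DMSO libraries. The 766 dropped to 351 when DMSO 6 h replicate 1 was left out, to 390 and 373 without BRM014 6 h replicates 1 and 2, to 416 without BRM014 30 h replicate 2 and to 409 with scaling to ribosomal protein genes.

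Growth genes were lower with time in both treatments. Ribosome biogenesis had a median of -0.75 in DMSO and -0.54 in BRM014, and none of its 27 genes passed the test of the difference. The DNA replication list had medians of -0.35 and -0.65 and the mitosis list -0.29 and -0.55, and 4 genes of each passed it. Interferon and MHC class I genes had medians of 0.87 and 1.71, and 8 of 33 passed. H2-K1 and H2-D1 are 2 of these, with differences of 0.90 ± 0.17 (adjusted p = 0.00641) and 0.98 ± 0.14 (adjusted p = 0.00138), with the larger rise in BRM014. Other lists had medians nearer to 0 or of the other sign in BRM014. YAP and TAZ targets had medians of -0.53 in DMSO and -0.03 in BRM014, and 10 of 23 passed. Ankrd1 was at 1555 and 1404 CPM at 6 h and 1675 and 1634 CPM at 30 h in BRM014 and its change there was 0.16 ± 0.12, a difference of 1.88 ± 0.17 (adjusted p = 5.95e-05). The fall seen in DMSO was thus not seen in the BRM014 libraries of this gene. Matrix genes had medians of -0.19 and 0.48, and 12 of 24 passed. Fbln2 was at 2301 and 2157 CPM at 6 h and 1967 and 2041 CPM at 30 h in BRM014 and changed there by -0.15 ± 0.10, a difference of 1.38 ± 0.14 (adjusted p = 1.25e-04). Respiratory chain subunits had medians of 0.26 and -0.02, but 2 of 48 passed.

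Single genes of defence and metabolism also differed between the treatments. Of the genes named for their difference, which need a mean log2 CPM of at least 2, Cfb had the lowest, -5.52 ± 0.48 (adjusted p = 3.92e-05): in BRM014 it was at 0.975 and 1.24 CPM at 6 h and 0.161 and 0.261 CPM at 30 h, so its 30 h libraries were the lower ones there and the higher ones in DMSO. C3 was at 2.36 and 3.84 CPM at 6 h and 25.6 and 38.3 CPM at 30 h in BRM014, and its difference of -0.66 ± 0.35 (adjusted p = 0.325) did not pass. Both belong to the complement cascade and stood on different sides of the test, though the difference between them was not itself tested. Ckmt1, Mep1a (the protease meprin) and Xpnpep2 (an aminopeptidase) also had low differences, -5.10 ± 0.74 (adjusted p = 0.00119), -4.50 ± 1.01 (adjusted p = 0.0171) and -3.91 ± 0.70 (adjusted p = 0.00477). In BRM014 these 3 genes were below 1 CPM in each library, as Cfb was at 30 h. The fitted changes of Cfb and of these 3 genes in BRM014 thus rest on few counts. With time in DMSO Mep1a rose from 1.32 and 2.96 CPM to 6.36 and 12.3 CPM (log2 fold change 2.13 ± 0.42, adjusted p = 0.00192). Xpnpep2 rose from 2.64 and 4.63 CPM to 7.01 and 9.58 CPM (log2 fold change 1.20 ± 0.30, adjusted p = 0.00870). At the other end Ccl2 was at 20.3 and 30.3 CPM at 6 h and 310 and 256 CPM at 30 h in BRM014, a difference of 2.58 ± 0.23 (adjusted p = 3.92e-05). Flnc was at 130 and 118 CPM at 6 h and 165 and 248 CPM at 30 h, a difference of 2.55 ± 0.23 (adjusted p = 5.56e-05). Ccl2 started lower at 6 h in BRM014 than in DMSO and was lower there at 30 h too, and Flnc was higher at 30 h than at 6 h in BRM014 and lower in DMSO. Tnfaip2 and Adam8 had differences of 3.14 ± 0.39 (adjusted p = 4.86e-04) and 2.71 ± 0.28 (adjusted p = 1.21e-04). In DMSO Tnfaip2 fell from 18.1 and 14.1 CPM to 11.7 and 8.31 CPM (log2 fold change -0.69 ± 0.24, adjusted p = 0.0399). Adam8 fell from 18.0 and 22.3 CPM to 16.2 and 10.1 CPM (log2 fold change -0.63 ± 0.20, adjusted p = 0.0273). The calls for time in DMSO of 3 of these genes are weak: that of Tnfaip2 ended without DMSO 6 h replicate 1, DMSO 30 h replicate 2 or BRM014 30 h replicate 1 and with library totals or ribosomal protein scaling (-0.70 to -0.44), that of Adam8 ended without DMSO 6 h replicate 2 or DMSO 30 h replicate 2 and with library totals, ribosomal protein scaling or only the DMSO libraries (-0.62 to -0.29) and that of Xpnpep2 ended without DMSO 6 h replicate 1 or DMSO 30 h replicate 2 (0.87 to 0.97). Among early genes Fos and Egr1 rose in DMSO but were at 10.0 and 8.01 CPM at 6 h and 9.42 and 6.58 CPM at 30 h and at 55.0 and 37.9 CPM at 6 h and 60.2 and 41.7 CPM at 30 h in BRM014, differences of -2.17 ± 0.30 (adjusted p = 9.80e-04) and -1.90 ± 0.36 (adjusted p = 0.00641). Among metabolic genes Pdk1 was at 14.7 and 13.9 CPM at 6 h and 22.4 and 18.3 CPM at 30 h in BRM014, a difference of -1.99 ± 0.20 (adjusted p = 1.09e-04). Hmox1, which fell in DMSO, was at 277 and 323 CPM at 6 h and 436 and 676 CPM at 30 h, a difference of 2.15 ± 0.22 (adjusted p = 1.21e-04).

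**Figure D4:**
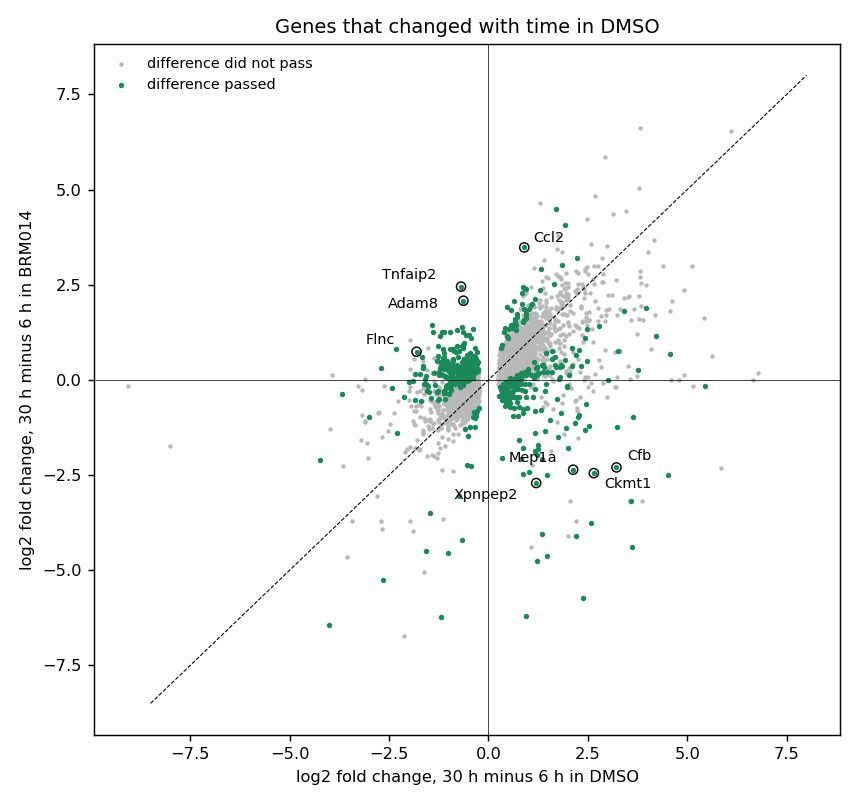
Each point is 1 of the 4167 genes that changed with time in DMSO, placed by its log2 fold change from 6 h to 30 h in DMSO (x axis) and in BRM014 (y axis); green points passed the test of the difference, grey points did not, and the dashed line marks equal changes. Rings mark the 4 highest and 4 lowest differences of the naming rule, from Tnfaip2 (3.14) to Cfb (-5.52), and the gap at the middle of the x axis is due to the choice of genes by their change in DMSO.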

How the data were processed

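Per the labels' protocols, RNA was purified on columns, and stranded libraries of total RNA were read from one end over 50 bases. The authors deposited raw counts per gene (whole numbers) under Entrez IDs and symbols. Build mm9, Subread, SAMtools 0.1.19 and featureCounts are named in the submitters' processing notes. How they were ordered and set, strand and annotation included, is not given in the sources used here, so overlapping and antisense genes may share reads. Counts of 8 libraries were filtered with filterByExpr, scaled with TMM and fitted with 4 group means in edgeR 4.0.16 (R 4.3.3, quasi-likelihood, 4 residual degrees of freedom, 2-sided, Benjamini-Hochberg over 11835 genes, threshold 0.05), and the script was tested on simulated data. Standard errors are the fold change over the square root of F. CPM are per 1000000 scaled counts. Named genes were the 12 highest and 12 lowest changes with a mean log2 CPM of at least 2, up to 4 members per list by p, list counts of 5 or fewer, the 5 highest levels and the 4 highest and lowest differences, besides 22 chosen after their values were seen; some genes of the rule are not reported here. The highest and lowest changes and differences were taken only from called genes whose DMSO groups did not overlap. Members, the 34 lists and the 7 marker lists were chosen with earlier results of these data known. Alternatives were other scalings (RLE, library totals, ribosomal protein genes), filters, DESeq2 1.42.0, limma-voom 3.58.1, only the DMSO libraries, a replicate block and leaving out each library.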

Additional observations from a re-analysis of the deposited data

Results flagged for a closer look

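The change from 6 h to 30 h differed between DMSO and BRM014 in 766 genes by the test of the difference, and 85 of the genes named here are among them, 5 of them chosen after their values were seen. Values are log2 differences, the change in BRM014 less the change in DMSO, so a value above 0 means a larger rise or a smaller fall with BRM014. That test shares the DMSO libraries with the test of time in DMSO.

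Of all 273 genes that fell in DMSO and passed this test 251 had a smaller or opposite change in BRM014, as had 187 of the 231 that rose, so a value above 0 is usual for a gene that fell and one below 0 for a gene that rose. The next 4 sets hold genes that fell in DMSO. Of the YAP and TAZ targets and actin genes, Ankrd1 was at 1.88, Amotl2 at 0.88, F3 at 1.72, Igfbp3 at 0.97, Actn1 at 0.87 and Flnc, outside the actin list, at 2.55. Of the matrix and plasminogen genes, Fbln2 was at 1.38, Fn1 at 0.87, Lamb1 at 1.72, Lamb3 at 0.68, Col7a1 at 1.68, Plaur at 1.52 and the protease Adam8 at 2.71. Of the keratins, envelope and junction genes, Krt80 was at 2.27, Krt8 at 0.78, Krt18 at 0.70, Lce1g at 2.15, Sprr1a at 1.46, Ppl at 1.03, Tjp1 at 0.69, Pard6b at 0.80 and Cdh2 at 0.80. Of the signalling genes, Wnt7a was at 2.04, Ereg at 1.06, Inhba at 1.13, Pmepa1 at 0.71, Plk2 at 0.97, Egfr at 0.77, Igf1r at 0.51, Mdm2 at 1.23 and Lgr6 at 2.21.

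Other genes that fell in DMSO were Tnfaip2 at 3.14, Tnfaip3 at 0.94, Isg20 at 1.19, Ptgs2 at 1.31, Hmox1 at 2.15, Osgin1 at 1.26, Hk2 at 1.36, Slc7a5 at 0.66, Slc3a2 at 0.80, Shmt2 at 0.91, Mthfd2 at 0.65 and Ctsl at 0.64. The membrane and secreted proteins Ccbe1, Dynap, Emp1 and Ahnak also fell and were at 1.89, 0.89, 0.97 and 0.90. Genes that rose in DMSO and had values above 0 were Ccl2 at 2.58, Cxcl5 at 0.85, H2-D1 at 0.98, H2-K1 at 0.90, Bmp4 at 0.76, Bmf at 0.97, Gsta4 at 1.06, Cdkn2a at 0.71, Atf5 at 0.86 and Ccng2 at 0.77. The linker histone Hist1h1c, which did not pass in DMSO, was at 1.16.

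Genes with values below 0 rose in DMSO, apart from the 2 proliferin genes. Complement and related genes were Cfb at -5.52, C1s1 at -2.07 and Lbp at -1.59. Early response and signalling genes were Fos at -2.17, Egr1 at -1.90, Btg2 at -1.25, Hes1 at -1.02, Fzd1 at -0.94, Irs1 at -1.10, Bmp2 at -1.75 and Igfbp7 at -0.81. Matrix and mesenchymal genes were Col12a1 at -2.76, Mmp19 at -3.79 (from fewer than 1 CPM in each BRM014 library) and S100a4 at -2.37. Metabolic and lysosomal genes were Ckmt1 at -5.10, Mep1a at -4.50, Xpnpep2 at -3.91, Pdk1 at -1.99, Bnip3 at -1.14, Gstm1 at -1.53, Aspa at -1.35 and Ctsh at -1.49. Alb was at -6.79 and Trf at -6.34, from fewer than 1 CPM in each BRM014 library. Zcchc24 was at -2.49, and the near-identical proliferin genes Prl2c2 and Prl2c3 were at -2.61 and -2.43.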

How the results depend on the processing

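Of 4167 genes called for time in DMSO, other settings called 2876 (scaling to ribosomal protein genes, 959 of them lower) to 4851 (replicate block). Leaving out 1 library at a time gave 2331 to 4223 genes, 1293 to 2160 higher and 1038 to 2097 lower. The difference between treatments, 766 genes, was 409 with scaling to ribosomal protein genes, 1309 with no filter on low counts, 1237 with the replicate block, and 351 to 921 with 1 library left out. Same-numbered libraries deviated together weakly (r from 0.011 to 0.201 over the 6 pairs of groups, and 0.201 for DMSO 6 h with DMSO 30 h). The labels do not say that equal numbers are pairs, so the main fit has no pairing. The replicate block called more genes in both tests. For time in DMSO, the named genes that had passed kept their direction in each alternative that tested them. Over all named genes 3645 repeats kept the side of the threshold, 174 lost the call and 5 gained it. The differences of single genes between treatments were not repeated in this way. Among list counts not given with their results, 2 cytokine genes were lower with scaling to ribosomal protein genes, and 0 interferon genes were lower without DMSO 6 h replicate 1. The cause was not tested. With 2 libraries per group, depth limits genes under about 1 CPM, where single counts move a fold change.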

Other observations

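Single genes that belong to no list were chosen after their values were seen because they rose in DMSO from below 2 CPM, so they stand for no group. Alb, serum albumin, was at 0.508 and 0.572 CPM at 6 h and 3.86 and 9.19 CPM at 30 h, a log2 fold change of 3.59 ± 0.47 (adjusted p = 1.46e-04). Agt, angiotensinogen, was at 0.305 and 0.572 CPM at 6 h and 2.23 and 6.52 CPM at 30 h, a change of 3.32 ± 0.54 (adjusted p = 6.08e-04), and Trf, the iron carrier transferrin, was at 0.457 and 0.520 CPM at 6 h and 1.63 and 4.16 CPM at 30 h, a change of 2.57 ± 0.52 (adjusted p = 0.00220). In all 3 the second 30 h replicate was the highest library, and both 6 h libraries were lowest. Hal, which breaks down histidine, rose from 0.203 and 0.468 CPM to 2.23 and 4.11 CPM (log2 fold change 3.24 ± 0.50, adjusted p = 4.09e-04), and Acox2, a peroxisomal oxidase of bile acid synthesis, rose from 1.22 and 1.30 CPM to 7.23 and 12.4 CPM (log2 fold change 2.96 ± 0.36, adjusted p = 9.31e-05). Slc17a1, a phosphate and urate transporter, rose from 0.254 and 0.520 CPM to 4.40 and 8.79 CPM (log2 fold change 4.09 ± 0.46, adjusted p = 5.52e-05), and Ttc36 rose from 0.152 and 0.104 CPM to 2.94 and 5.08 CPM (log2 fold change 4.91 ± 0.56, adjusted p = 5.92e-05). Selenbp1, a selenium-binding oxidase, rose from 0.762 and 1.51 CPM to 13.2 and 13.1 CPM (log2 fold change 3.53 ± 0.36, adjusted p = 2.94e-05), with equal replicates at 30 h. Ranbp3l, an exporter of SMAD proteins, rose from 0.102 and 1.14 CPM to 16.4 and 44.1 CPM (log2 fold change 5.61 ± 0.63, adjusted p = 5.47e-05), and its 30 h replicates differed widely.

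The R-spondin receptors Lgr5 and Lgr6, which mark stem cells in several epithelia, went opposite ways. Lgr6 fell from 6.66 and 9.46 CPM to 2.01 and 1.05 CPM (log2 fold change -2.42 ± 0.33, adjusted p = 1.89e-04), while Lgr5 rose from 0.0508 and 0.312 CPM to 1.52 and 4.16 CPM (log2 fold change 3.96 ± 0.86, adjusted p = 0.00353), but its call ended with DESeq2 (3.98). Sema4f, a semaphorin, fell from 6.46 and 5.35 CPM to 0.489 and 0.263 CPM (log2 fold change -3.99 ± 0.41, adjusted p = 3.06e-05), and Selp, an adhesion receptor best known from platelets and endothelium, fell from 4.73 and 7.64 CPM to 0.815 and 0.700 CPM (log2 fold change -3.03 ± 0.35, adjusted p = 5.98e-05). Egr2, of the early response, rose from a few counts, from 0.305 and 0.0520 CPM to 1.79 and 0.963 CPM (log2 fold change 2.88 ± 0.75, adjusted p = 0.00989), and the call of Egr2 ended without DMSO 6 h replicate 2 or DMSO 30 h replicate 1 (2.12 to 2.38). The matrix glycoprotein Tnc fell from 7.68 and 4.47 CPM to 2.12 and 2.84 CPM (log2 fold change -1.28 ± 0.32, adjusted p = 0.00765), and the call of Tnc ended without DMSO 6 h replicate 1 (-0.82).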
